A study of Mus musculus with 25 samples.

Results

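The genes described here encode the nuclear subunits of the mitochondrial respiratory chain and ATP synthase. They were taken by symbol from the annotation of the array: every gene whose name begins with Nduf, Uqcr, Atp5 or Cox4 to Cox8, together with Sdha, Sdhb, Sdhc and Sdhd. This gave 90 genes, read by 179 probe sets, of 18194 genes and 34958 probe sets with 1 symbol. By complex, 34 encode subunits of complex I, 4 of complex II, 8 of complex III, 17 of complex IV and 17 of complex V. Another 8 genes encode assembly factors of complex I (the Ndufaf genes), and Cox7a2l and Ndufa4l2 are related to complex IV genes. A probe set was called expressed where its mean over the 25 arrays exceeded 3.27, the median over all probe sets, and 81 of the 90 genes had at least 1 such probe set. The 9 without one were Ndufb1, Ndufb4, Ndufaf6, Cox4i2, Cox6a2, Cox6b2, Cox7b2, Cox8c and Ndufa4l2.

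The glands came from male C57BL/6.NOD-Aec1Aec2 mice of 5 ages (4, 8, 12, 16 and 20 weeks), with 5 mice from at least 2 litters at each age. This congenic line carries the NOD-derived Idd5 (Aec2) and Idd3 (Aec1) intervals on a C57BL/6 background, in every age group, and develops a disease resembling Sjögren's syndrome. One lobe of each gland, with submandibular, sublingual and parotid tissue but no lymph node, was used, and each mouse had its own array. C57BL/6J mice were not analysed here, so age and disease cannot be told apart. The comparisons ask how each later age differed from 4 weeks, and all 4 of them share the same 5 mice of 4 weeks.

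The respiratory chain passes electrons from NADH (complex I) and succinate (complex II) through complex III to oxygen at complex IV, and the proton gradient built on the way drives ATP synthesis by complex V. Most subunits are encoded in the nucleus, and some complex IV and complex V subunits have tissue-restricted isoforms. In salivary glands the striated duct cells are known for rows of mitochondria along their basal membrane, where they power ion transport. In these whole-gland RNAs, fewer cells of a type and less RNA per cell cannot be told apart.

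Some arrays stood apart before any comparison. Mouse 3 of 20 weeks correlated with its age mates at a median r of 0.897 across genes, while every other array reached at least 0.974. Its Gapdh 3' signal exceeded the 5' signal by 3.87 log2 units, against at most 1.68 elsewhere. Its upper quartile (5.19), that of mouse 2 at 16 weeks (5.20) and that of mouse 4 at 4 weeks (5.34) were the lowest 3 of the 25. Of the marker lists for the cells of the gland, all 13 duct, 11 acinar and 7 myoepithelial genes had an expressed probe set, and of 14 striated muscle genes 4 had one, Ckm and Mb not among them. The muscle list mean lay between 2.71 and 3.24, with mouse 3 of 20 weeks the highest. Ttn, the titin gene of muscle, was at 5.84 in mouse 2 of 16 weeks, 5.55 in mouse 3 of 20 weeks and 5.34 in mouse 4 of 4 weeks, and at most 4.57 elsewhere, so the arrays of lowest upper quartile held its highest values.
The 3' to 5' differences of the other control genes also varied. That of actin was 5.36 in mouse 3 and 3.75 in mouse 5 of 20 weeks, and it lay between 2.78 and 3.02 in the 12-week mice, against 2.18 to 2.67 in the 4-week mice, without overlap. That of the transferrin receptor was 2.01, 1.86 and 1.58 in mice 1, 2 and 4 of 20 weeks, and at most 1.25 in the mice of earlier ages. The acinar gene Amy1, an amylase, also differed widely between mice of the same age. It was at 8.42 in mouse 2 of 4 weeks, against 14.89 to 15.86 in the other 4-week mice. At 20 weeks it was at 10.22 in mouse 5 and 11.50 in mouse 1, against 14.42 to 16.00 in the others. Dcpp3, another acinar gene, was at 8.29 in mouse 5 of 16 weeks and at least 12.235 elsewhere. The part of RNA quality, of muscle tissue and of the mix of gland tissue in the results below was not tested.

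GABP, NRF1 and YY1 are factors known to drive respiratory chain genes. Of 74 members with a promoter sequence, 40 (54.1%) held a motif of at least 1 of the 3, against 16.4% of all 27025 genes. For the 3 together the share among other expressed genes was not computed. The promoters of 4 members are shown. Atp5e and Atp5l were higher at 20 weeks. Cox8a and Cox8b, neither of them called, are the common and the heart and muscle isoform of 1 subunit. Each covers 250 bases before to 50 after the RefSeq start (GRCm38.p6), and all 4 lie on the minus strand: Atp5e at chr2:174464052-174464351, Atp5l at chr9:44920693-44920992, Cox8a at chr19:7217567-7217866 and Cox8b at chr7:140900397-140900696. Capitals mark CCGGAAG, the core motif of GABP and other ETS factors, and TATAAA, the TATA box, each searched on both strands, so that CTTCCGG and TTTATA are the same motifs read from the opposite strand.
Atp5e: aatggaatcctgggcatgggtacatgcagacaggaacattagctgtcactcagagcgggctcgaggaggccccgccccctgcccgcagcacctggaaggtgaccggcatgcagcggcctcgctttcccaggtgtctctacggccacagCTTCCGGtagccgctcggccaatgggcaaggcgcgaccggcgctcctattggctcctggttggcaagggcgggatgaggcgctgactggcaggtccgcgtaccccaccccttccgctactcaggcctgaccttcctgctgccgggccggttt
Atp5l: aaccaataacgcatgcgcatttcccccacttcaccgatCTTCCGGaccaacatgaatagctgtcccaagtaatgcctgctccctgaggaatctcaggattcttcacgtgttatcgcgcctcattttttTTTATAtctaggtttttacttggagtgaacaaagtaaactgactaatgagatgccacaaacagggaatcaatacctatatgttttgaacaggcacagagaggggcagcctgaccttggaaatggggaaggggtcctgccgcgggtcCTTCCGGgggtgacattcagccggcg
Cox8a: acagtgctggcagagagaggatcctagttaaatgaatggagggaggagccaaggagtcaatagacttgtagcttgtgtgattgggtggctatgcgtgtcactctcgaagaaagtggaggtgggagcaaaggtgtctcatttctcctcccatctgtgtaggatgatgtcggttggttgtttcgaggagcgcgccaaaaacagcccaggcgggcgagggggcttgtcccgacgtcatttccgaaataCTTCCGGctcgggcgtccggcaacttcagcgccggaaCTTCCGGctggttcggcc
Cox8b: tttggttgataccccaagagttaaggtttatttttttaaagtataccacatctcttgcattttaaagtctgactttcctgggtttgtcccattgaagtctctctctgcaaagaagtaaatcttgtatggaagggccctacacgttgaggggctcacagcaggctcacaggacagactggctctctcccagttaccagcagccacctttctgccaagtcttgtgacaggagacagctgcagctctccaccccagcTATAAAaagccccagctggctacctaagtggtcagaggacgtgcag
The CCGGAAG motif occurred once in the Atp5e promoter, at 2 places in the Atp5l promoter and at 2 places in the Cox8a promoter. The Cox8b promoter held none and had TATAAA in the direction of the gene, 5 bases after the annotated start. Of 74 members with a promoter in the table, 19 (25.7%) held CCGGAAG, against 9.9% of all 27025 genes and 19.1% of 9325 other genes with an expressed probe set. The palindromic NRF1 motif, searched by its usual consensus, was found in 17 members (23.0%), against 5.2% of all genes and 10.9% of the other expressed genes. The YY1 motif AAGATGGC was found in 10 members (13.5%), against 3.2% and 5.2% for the same sets. TATAAA was found in 8 members (10.8%), against 15.7% and 9.8%. None of the motifs overlapped another in the promoters shown. These matches describe letters in a window and were not tested as binding sites.

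At 12 weeks nearly all expressed members were above their 4-week level: 77 of 81, against 62% of all 11696 genes with an expressed probe set. Their median log2 difference was 0.40, against 0.14 for all expressed genes. Only 4 of the 90 passed the limma test (Benjamini-Hochberg adjusted p under 0.05 over all genes), all higher, where 5.66% of all genes were called higher and 1.36% lower, so the share called was no larger than that of the array. The called genes were Ndufab1, Ndufs4 and Ndufb7 of complex I and Cox6c of complex IV. At an unadjusted p under 0.05 the count was 32 of 90, against 20.7% of all genes. The 5 values of 12 weeks lay wholly above the 5 of 4 weeks for 30 members and wholly below for 6, against 12.5% and 21.1% of all genes. The 6 below were all without an expressed probe set. At 8 weeks 2 members lay wholly above and 1 wholly below (4.58% and 4.05% of all genes), at 16 weeks 1 above (Ndufb7) and 0 below (2.22% and 2.16%), and at 20 weeks 1 above (Atp5mpl) and 0 below (1.22% and 1.35%).

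The shift was shared by the complexes. Median log2 differences at 12 weeks over all members were 0.39 for complex I, 0.47 for complex II, 0.49 for complex III, 0.34 for complex IV, 0.28 for complex V and 0.29 for the assembly factors. These medians include genes without an expressed probe set. In complex IV 12 of 17 genes had one, in complex I 32 of 34 and among the assembly factors 7 of 8. In complexes II, III and V all had one. The mean of the 81 expressed members, set against the 4-week mean, was 0.35, 0.40, 0.44, 0.45 and 0.39 in the 12-week mice, against 0.18, 0.09, 0.11, -0.65 and 0.26 in the 4-week mice. All 12-week mice were above all 4-week mice, and 1 mouse of 4 weeks stood far below the rest. On that array, mouse 4 of 4 weeks, 80 of the 81 members lay below the mean of the other 4 mice, with a median of -0.84, while the median over all expressed genes was -0.30. Without it, 73 of 81 members were above 0 at 12 weeks with a median of 0.23, and 1 of 90 passed, where 2.44% of all genes were called higher and 1.04% lower.
The shift was smaller under another scaling of the arrays. After quantile normalization 53 of 81 expressed members were above 0 at 12 weeks, against 48.7% of all expressed genes, with a median of 0.08, against -0.01 for all. The test then called 5 members higher and 1 lower, where 3.52% and 2.75% of all genes were called. The medians were then 0.06 for complex I, 0.09 for complex II, 0.11 for complex III, 0.22 for complex IV and 0.01 for complex V, whose median was -0.01 once array upper quartiles entered as a covariate. On the deposited values with limma array weights, which count noisy arrays less, 48 were higher and 8 lower at 12 weeks (20.5% and 34.4% of all genes), and 25 higher and 3 lower at 20 weeks (13.5% and 22.4%).

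**Figure D1:**
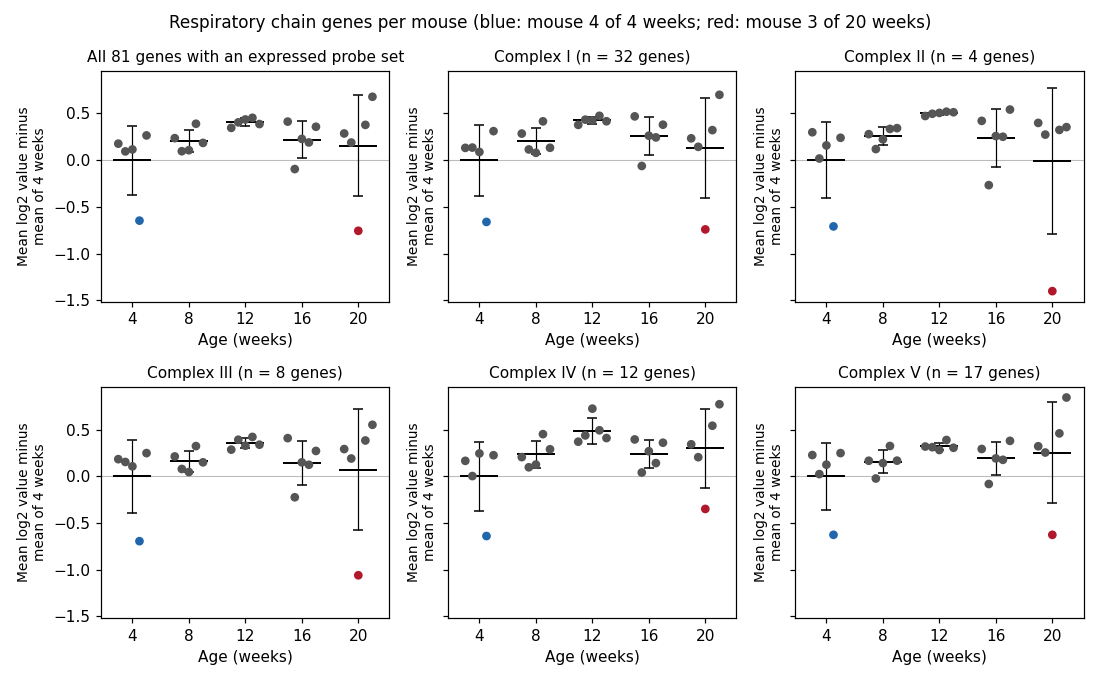
Mean log2 value per mouse of the expressed respiratory chain genes, all together and by complex, minus the mean of the 4-week mice, against age in weeks. Points are mice, bars are means and error bars SD (n = 5). Mouse 4 of 4 weeks (blue, -0.65 over all 81 genes) and mouse 3 of 20 weeks (red, -0.76) lie below the others of their age, and the 12-week mice lie close together.

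Ndufab1, the mitochondrial acyl carrier protein and an accessory subunit of complex I, gave the smallest adjusted p. Its log2 values were 8.25, 8.26, 8.11, 8.24 and 8.22 at 12 weeks, against 7.22, 7.43, 7.40, 6.97 and 7.77 at 4 weeks. The ages did not overlap, and the 12-week mice lay within a narrow band. It rose 1.81-fold (log2 difference 0.86 ± 0.16 (SE), limma adjusted p = 0.00255). The difference was 0.60 at 8 weeks (adjusted p = 0.0513), 0.44 at 16 weeks (adjusted p = 0.152) and 0.02 at 20 weeks. Ndufab1 thus had its highest mean at 12 weeks, but limma called no difference between neighbouring ages. It was the 1 member called by the F-test for any change over the 5 ages (adjusted p = 0.00598, 4.66% of all genes called) and the 1 with a B-statistic above 1.5 (5.08, where 1.92% of all genes were called). Its 3 expressed probe sets disagreed: at 12 weeks 1 gave 1.99 ± 0.42, and the others gave 0.37 ± 0.21 and 0.23 ± 0.28, the last being the brightest. Read from the brightest alone, Ndufab1 was not called (adjusted p = 0.66).

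Ndufs4, an accessory subunit of complex I whose loss causes Leigh-like disease in mice, had values of 6.34, 6.36, 6.23, 6.42 and 6.28 at 12 weeks, against 5.99, 5.65, 5.80, 5.32 and 6.10 at 4 weeks. No 12-week mouse was as low as any 4-week mouse, and the gene rose 1.47-fold (0.55 ± 0.15, adjusted p = 0.0273). Cox6c, a nuclear subunit of cytochrome c oxidase, had 12.07, 12.18, 12.07, 12.16 and 11.96 at 12 weeks, against 11.84, 11.36, 11.58, 10.75 and 11.70 at 4 weeks, again without overlap (1.56-fold, 0.64 ± 0.18, adjusted p = 0.0366). Ndufb7, an accessory subunit of complex I, had 9.59, 9.63, 9.78, 9.92 and 9.80 at 12 weeks, against 9.17, 9.18, 8.91, 8.10 and 9.42 at 4 weeks (1.72-fold, 0.79 ± 0.24, adjusted p = 0.0484). In all of these genes mouse 4 was the lowest of the 4-week mice. After quantile normalization Cox6c (0.31, adjusted p = 0.106) and Ndufb7 (0.40, adjusted p = 0.235) were not called. With array upper quartiles as a covariate neither was, nor was Ndufs4 (adjusted p = 0.142, 0.184 and 0.088). Read from its brightest probe set, Ndufb7 was not called either (adjusted p = 0.166), and Ndufs4 was at the threshold (1.11, adjusted p = 0.05). Without mouse 4 of 4 weeks Ndufs4, Cox6c and Ndufb7 were not called (0.44, 0.47 and 0.57, adjusted p = 0.102, 0.13 and 0.173), and Ndufab1 remained called (0.76, adjusted p = 0.00995). The margins were narrow for these 3 genes in general. All 3 were also lost without mouse 2 of 4 weeks (adjusted p = 0.0622, 0.0743 and 0.0589) or mouse 3 of 4 weeks (0.0521, 0.0547 and 0.0912). Leaving out a 12-week mouse lost Ndufs4 for mouse 1, 2 or 4 (adjusted p up to 0.0682) and Cox6c and Ndufb7 for any of the 5 (up to 0.0933 and 0.11). Ndufb7 was further lost without mouse 1, 2, 3 or 5 of 8 weeks, mouse 1, 3, 4 or 5 of 16 weeks or mouse 1, 2 or 4 of 20 weeks (adjusted p up to 0.0586).

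Among the members that did not pass at 12 weeks, the assembly factor gene Ndufaf3 had the highest difference, 0.97 ± 0.63 (adjusted p = 0.438), with 4-week values from 4.92 to 7.34. Ndufa4, a subunit now assigned to complex IV, differed by 0.88 ± 0.30 (adjusted p = 0.0797), and its ages did not overlap. The complex II genes had differences of 0.43 (Sdha, the flavoprotein), 0.47 (Sdhb, the iron-sulfur protein), 0.63 (Sdhc) and 0.48 (Sdhd, like Sdhc a membrane anchor), with adjusted p from 0.217 to 0.394. In complex III, Uqcr10 and Uqcrq, both small subunits, differed by 0.69 ± 0.24 and 0.64 ± 0.24 (adjusted p = 0.0913 and 0.105). The lowest difference was that of Ndufa10, an accessory subunit of complex I, at -0.44 ± 0.49 (adjusted p = 0.627).

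At 20 weeks the values turned on mouse 3, without which 74 of 81 expressed members were above 0 with a median of 0.29. With all 5 mice, of the 81 expressed members 50 were above 0, against 60.2% of all expressed genes, with a median of 0.09, against 0.07 for all. After quantile normalization 37 of 81 were above 0, against 50.5% of all expressed genes, and the median was -0.02. The limma test called 3 of 90 higher and 0 lower, against 1.14% and 1.52% of all genes, and 16 had an unadjusted p under 0.05, against 12.4% of all genes. All 3 are small subunits of ATP synthase: Atp5mpl and Atp5l of the membrane part and Atp5e, the epsilon subunit of the catalytic part.
Atp5mpl had log2 values of 9.04, 9.32, 9.39, 9.50 and 11.04 in the 20-week mice, against 8.63, 7.80, 8.72, 7.74 and 8.81 in the 4-week mice. The ages did not overlap, and mouse 5 of 20 weeks, whose actin 3' to 5' difference of 3.75 was the second highest of the 25 arrays, was far above the rest. It rose 2.49-fold (1.32 ± 0.32, adjusted p = 0.028).
Atp5l had 10.93, 10.47, 9.76, 10.92 and 11.40 at 20 weeks, against 10.20, 8.94, 9.82, 8.72 and 9.71 at 4 weeks, so that mouse 3 of 20 weeks alone lay within the 4-week range. It rose 2.33-fold (1.22 ± 0.30, adjusted p = 0.0296). Atp5e had 10.05, 10.04, 9.31, 10.64 and 11.61 at 20 weeks, against 9.61, 9.13, 9.11, 8.55 and 9.26 at 4 weeks, with the same mouse overlapping (2.30-fold, 1.20 ± 0.31, adjusted p = 0.0391). At 16 weeks the differences were 0.79 for Atp5mpl, 0.44 for Atp5l and 0.76 for Atp5e, with adjusted p of 0.23, 0.61 and 0.228.
Each of these genes rested on 1 expressed probe set, that of Atp5e being marked by its suffix as matching more than 1 transcript. Without mouse 5 of 20 weeks, none of the 3 was called (0.97, 1.04 and 0.88 for Atp5mpl, Atp5l and Atp5e, adjusted p = 0.058, 0.0839 and 0.0887), and likewise without mouse 4 of 4 weeks (1.17, 1.03 and 1.05, adjusted p = 0.0791, 0.0881 and 0.107) or mouse 2 of 4 weeks (1.18, 1.08 and 1.20, adjusted p = 0.0906, 0.0993 and 0.0844). Without mouse 4 of 4 weeks 0.533% of all genes were called higher at this age and 1.67% lower. Atp5l was also lost without mouse 1 or 4 of 20 weeks (adjusted p = 0.0716 for both). Atp5e was also lost without mouse 1, 2 or 4 of 20 weeks, mouse 3 or 5 of 4 weeks or mouse 4 or 5 of 12 weeks (adjusted p from 0.0502 to 0.0957).

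**Figure D2:**
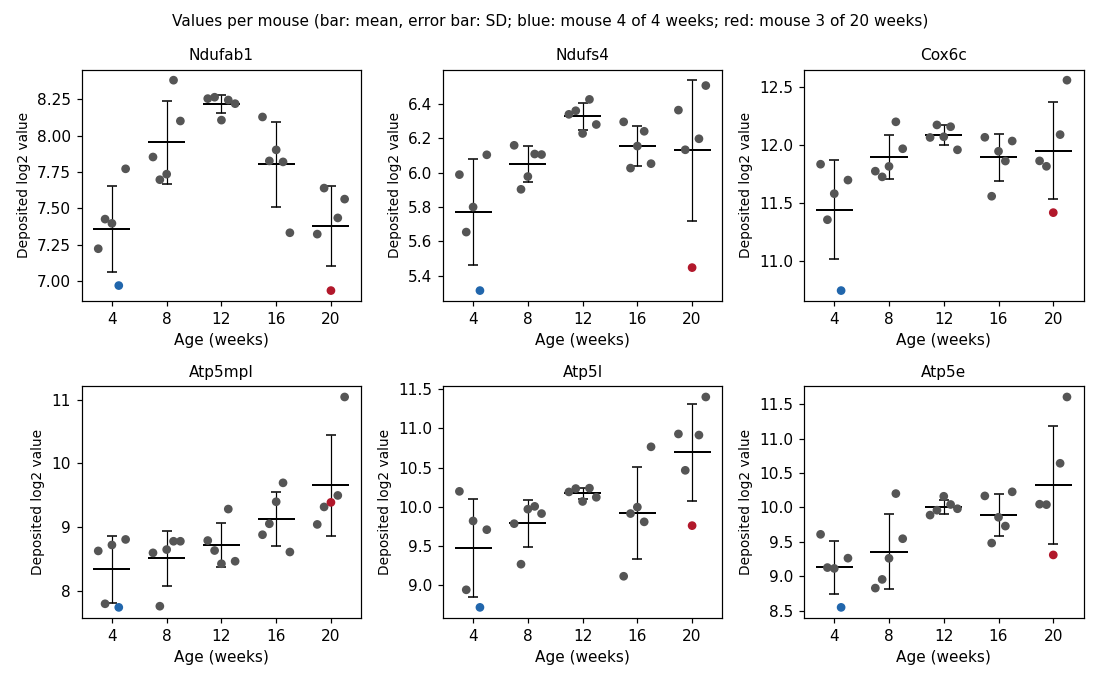
Deposited log2 value per mouse against age in weeks for 6 genes that passed the test at 12 weeks (Ndufab1, Ndufs4, Cox6c) or 20 weeks (Atp5mpl, Atp5l, Atp5e). Points are mice, bars means and error bars SD (n = 5). Ndufab1 has its highest mean at 12 weeks, though its 3 expressed probe sets disagree. The ATP synthase genes are highest at 20 weeks, with mouse 5 (11.04, 11.40 and 11.61) at the top.

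On the array of mouse 3 of 20 weeks 74 of the 81 expressed members lay below the mean of the other 4 mice of 20 weeks, with a median of -1.13, against -0.36 over all expressed genes. The difference was uneven across complexes. The mean over complex II, set against 4 weeks, was -1.40 in mouse 3, against 0.27 to 0.40 in the other 20-week mice, and that of complex III was -1.06, against 0.19 to 0.55. Complex IV was less low, at -0.35, against 0.21 to 0.77.
Single genes ranged widely. Ndufaf3 was at 3.01 in mouse 3, against a mean of 7.39 in the other 4 mice of that age, and Ndufa10 was at 5.87, against 9.46. Atp5b, the catalytic beta subunit of ATP synthase, was at 10.58, against 13.37. Some small subunits were not lower: Ndufa2, of complex I, was at 11.85, against 11.45, and Atp5md, of ATP synthase, at 11.02, against 10.68. Atp5b, Ndufa2 and Atp5md were chosen after their values were seen. The 3' to 5' difference of the Gapdh probe sets was 3.87 on this array, against at most 1.68 elsewhere. Its part in these values was not tested.

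**Figure D3:**
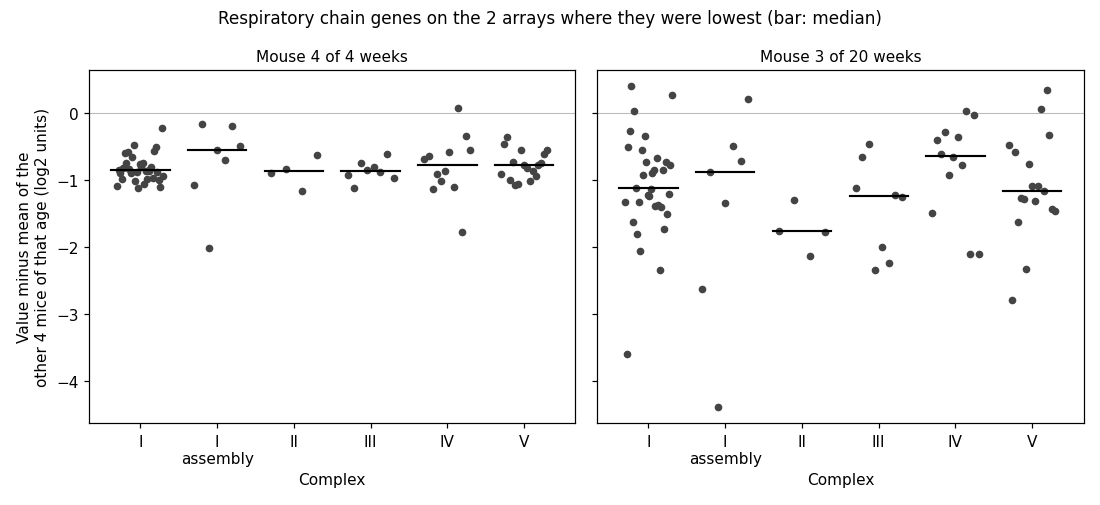
Log2 value of each expressed member on the array of mouse 4 of 4 weeks (left) and mouse 3 of 20 weeks (right), minus the mean of the other 4 mice of that age, by complex. Points are genes and bars medians. Nearly all genes lie below 0 on both arrays, with medians over all members of -0.84 and -1.13, and the spread is wider on the 20-week array, down to -4.38 for Ndufaf3.

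With mouse 3 left out, 74 of 81 expressed members were above 0 at 20 weeks, against 58.9% of all expressed genes, with a median of 0.29. The test then called 21 of 90 higher and 0 lower, where 6.23% of all genes were called higher and 2.65% lower. By complex the called genes numbered 9 in complex I, 1 in complex II, 3 in complex III, 3 in complex IV and 5 in complex V. Atp5e, Atp5l and Atp5mpl were again among them (1.45, 1.45 and 1.38). Others were Ndufb7 (1.05 ± 0.23, adjusted p = 0.00731), Cox7a2, the common isoform of a small complex IV subunit (0.85 ± 0.20, adjusted p = 0.0102), Ndufa4 (0.87 ± 0.16, adjusted p = 0.00257) and Sdhc (0.85 ± 0.24, adjusted p = 0.0274). The same omission raised the 12-week count to 26 higher, although it left the 12-week values as they were, since all ages share 1 estimate of the spread in the fit. The background at 12 weeks was then 13.3% higher and 3.29% lower.
After quantile normalization of all 25 arrays, 5 members were higher at 20 weeks and 5 lower, where 1.96% and 3.83% of all genes were called. The higher ones were Atp5mpl, Atp5l, Atp5e, Ndufb7 and Cox7a2. The lower ones were Sdha (-0.37 ± 0.11, adjusted p = 0.0439), Sdhb (-0.29 ± 0.09, adjusted p = 0.0466), Ndufa6, Uqcrc2, a core protein of complex III, and Uqcrfs1, the Rieske iron-sulfur protein. Ndufa6, Uqcrc2 and Uqcrfs1 were chosen after their values were seen. Uqcrfs1 had deposited values of 10.95, 10.80, 8.61, 10.88 and 10.76 at 20 weeks, against 10.97, 11.43, 11.37, 10.43 and 11.48 at 4 weeks, so mouse 3 was by far the lowest and the other mice overlapped. Its difference was -0.74 ± 0.33 as deposited (adjusted p = 0.348), -0.85 ± 0.19 after quantile normalization (adjusted p = 0.00774) and -0.63 ± 0.14 after quantile normalization without mouse 3 (adjusted p = 0.00627). Within complex III at this age, Uqcrfs1 was below 0 and Uqcrq (0.43 ± 0.24, adjusted p = 0.509) above 0 as deposited.

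**Figure D4:**
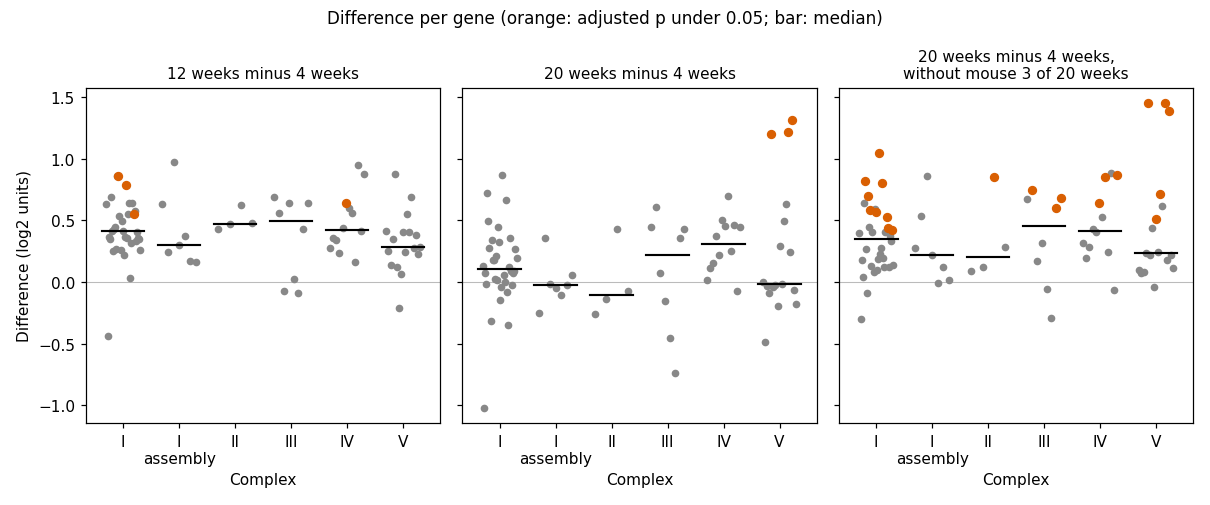
Log2 difference from 4 weeks of each expressed member by complex, at 12 weeks, at 20 weeks and at 20 weeks without mouse 3. Points are genes, orange where the limma adjusted p was under 0.05, and bars are medians. At 12 weeks most points lie above 0 on the deposited scale (53 of 81 after quantile normalization), and at 20 weeks the 3 called genes of complex V stand apart from a group centred near 0.

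At 8 and 16 weeks limma called none of the 90 members in either direction, where 1.48% of all genes were higher and 0.78% lower at 8 weeks, and 1.71% and 1.68% at 16 weeks. At an unadjusted p under 0.05 the counts were 4 and 12 of 90, against 14% and 14.4% of all genes. Expressed members above 0 numbered 75 of 81 at 8 weeks and 67 at 16 weeks, against 60.5% and 52.6% of all expressed genes. After quantile normalization these were 33 and 51, against 43.1% and 49.4% of all expressed genes. The nearest to the threshold were Ndufab1 at 8 weeks and Ndufb7 at 16 weeks (0.85 ± 0.24, adjusted p = 0.0513), whose 16-week values of 10.05, 9.60, 9.75, 9.67 and 9.97 lay above every 4-week value. Between neighbouring ages limma called no member. For 12 against 8 weeks 7 members had an unadjusted p under 0.05, against 3.86% of all genes, of which 0.0055% were called higher and 0% lower. For 16 against 12 weeks the count was 5, against 7.67%, with 0% called higher and 0.0055% lower, and for 20 against 16 weeks it was 6, against 7.22%, with 0.011% higher and 0.0165% lower.

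Some subunits have isoforms or paralogs, and 8 pairs were compared within each array. Not all set a common against a tissue-restricted isoform. Atp5g1 and Atp5g3, each set against Atp5g2, are c-ring genes like it, and all had an expressed probe set. Ndufa4l2 is a paralog of Ndufa4. Cox4i2, Cox6a2, Cox6b2 and Ndufa4l2 had no expressed probe set, and their values stayed between 1.29 and 2.67 on every array. Cox4i2 is the lung-type partner of Cox4i1, and Cox6a2 the heart and muscle partner of Cox6a1. No pair passed at any later age by the two-sided exact permutation test after adjustment over the 32 comparisons. The smallest p that 5 against 5 mice allow is 0.00794 (252 divisions), and it was reached at 12 weeks by 4 pairs, with an adjusted p of 0.0635. A comparison at this smallest p passes the adjustment only if enough others reach it too. The test could thus not decide whether these 4 pairs changed. One was Atp5g1 against Atp5g2, genes for the same c-ring protein of ATP synthase with different leader peptides, whose difference was higher by 0.34 ± 0.06 (SE) at 12 weeks. The others were the pairs of Cox4i2, Cox6b2 and Ndufa4l2, where the isoform lay at background and the common partner alone was measured. After quantile normalization 7 of the 32 reached the smallest p and passed together (adjusted p = 0.0363 by the same exact test). Of these, 4 involved an isoform at background (Cox6a2 at 20 weeks, Cox6b2 at 12 weeks and Ndufa4l2 at 12 and 16 weeks), so that the common partner alone was measured. The other 3 were Atp5g1 against Atp5g2 at 12 weeks (0.36) and Atp5g3 against Atp5g2 at 8 weeks (0.44) and 12 weeks (0.64).

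Cox8b, the heart and muscle isoform that brown adipocytes also use, was high in single mice. Its log2 values at 12 weeks were 3.25, 3.18, 6.76, 3.22 and 3.34, against 3.25, 3.29, 4.56, 3.26 and 3.32 at 4 weeks. Mouse 3 of both ages held the high value, and the others lay between 3.18 and 3.34. The mean difference of 0.42 ± 0.48 (adjusted p = 0.641) turned to -0.29 without mouse 3 of 12 weeks. Mouse 4 of 20 weeks was next, at 4.32. Its common partner Cox8a had no mouse that high above the rest, with 10.47, 10.47, 10.33, 10.38 and 10.35 at 12 weeks, against 9.45, 9.90, 9.73, 8.03 and 10.17 at 4 weeks.
Of the brown adipocyte markers measured, Ucp1, the uncoupling protein of brown fat, was at 7.96 in mouse 3 of 12 weeks, 5.53 in mouse 3 of 4 weeks, 3.82 in mouse 1 of 8 weeks and 3.19 in mouse 2 of 16 weeks, and at most 2.55 in the other 21 mice. Cidea, a lipid droplet protein of brown fat, was at 8.76, 4.38 and 4.21 in the first 3 of these mice. The third, Elovl3, lay between 2.30 and 2.81 on every array. The mean of the 3 genes was 6.36 in mouse 3 of 12 weeks, with a median of 2.21 over the mice of that age, and the striated muscle list mean lay between 2.74 and 2.82 in the 12-week mice. Cox7a1, the heart and muscle isoform of Cox7a2, was at 7.39 in the same mouse, against 6.33 to 6.67 in the others of 12 weeks, and at 7.91 in mouse 5 of 20 weeks, where Ucp1 was at 2.38. How far adipose tissue in a sample set these values was not tested.

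**Figure D5:**
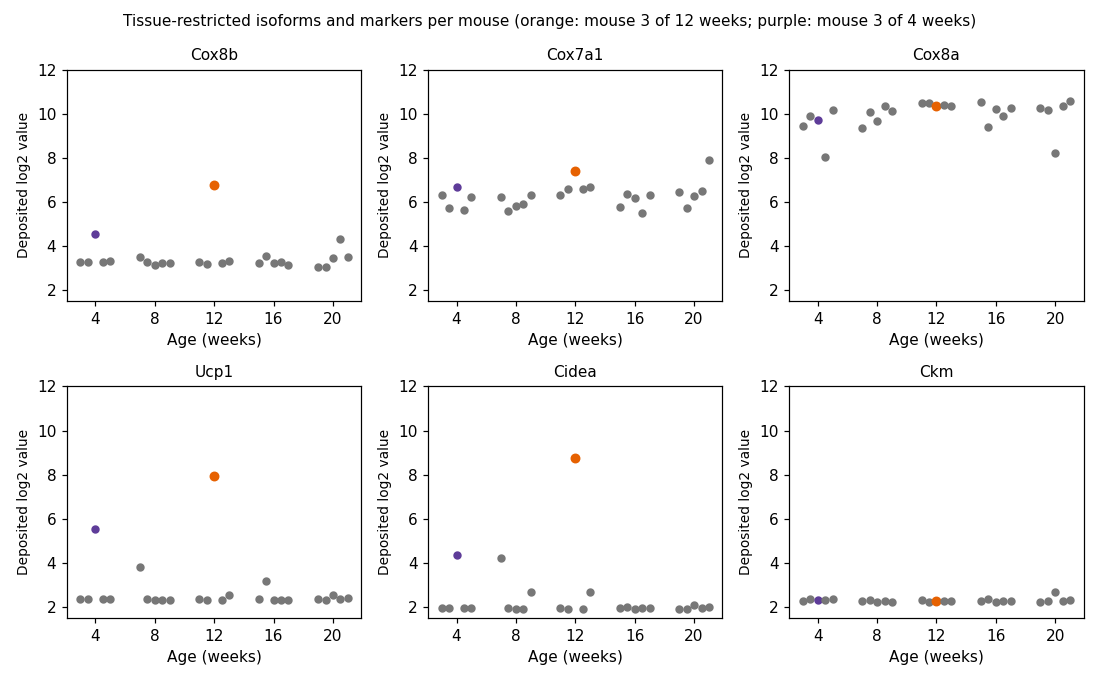
Deposited log2 value per mouse against age in weeks for the complex IV isoforms Cox8b, Cox7a1 and Cox8a, the brown adipocyte markers Ucp1 and Cidea, and the muscle marker Ckm. Points are mice. Mouse 3 of 12 weeks (orange) is highest for Cox8b (6.76), Ucp1 (7.96) and Cidea (8.76), mouse 3 of 4 weeks (purple) is second for each, and Ckm, which has no expressed probe set, lies between 2.21 and 2.70.

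Lists of other mitochondrial genes were described in the same way, beside a median of 0.14 for all expressed genes at 12 weeks and 5.66% of all genes called higher and 1.36% lower. Among 34 assembly factor genes for the complexes 5 rose and 0 fell, with a median of 0.36. They included Surf1 (0.75 ± 0.18, adjusted p = 0.0132) and Cox17, a copper chaperone (0.79 ± 0.20, adjusted p = 0.0177), both for complex IV, and Uqcc1 for complex III (1.02 ± 0.28, adjusted p = 0.0287). Of 76 genes of the mitochondrial ribosome 2 rose (median 0.35) and of 23 protein import genes 2 rose (median 0.29). Of 9 antioxidant genes 1 rose, Sod1 (0.71 ± 0.18, adjusted p = 0.0183), whose product is not confined to mitochondria. Sod2 was not called (0.32 ± 0.14, adjusted p = 0.171). None of 18 genes of the TCA cycle and pyruvate dehydrogenase (median 0.36), 20 regulators of mitochondrial biogenesis (0.15), 9 electron carrier and related genes (0.12) or 8 membrane carriers (0.22) passed at 12 weeks. Of the regulators, Ppargc1b, a coactivator of mitochondrial gene expression, rose at 8 weeks (1.66 ± 0.43, adjusted p = 0.0416). At 16 weeks 1 ribosome and 1 import gene rose and no gene of these mitochondrial lists fell. At 20 weeks, when 1.14% of all genes were called higher and 1.52% lower, Tomm7, a small subunit of the outer membrane import channel, rose (1.14 ± 0.22, adjusted p = 0.00511), and Timm44, of the inner membrane import motor, fell (-0.48 ± 0.12, adjusted p = 0.0296). These were the 2 import genes called at that age, and no other mitochondrial list had a call.
Glycolysis, the cytosolic route to ATP, had 2 of 16 genes higher at 12 weeks, among them Aldoa (0.88 ± 0.23, adjusted p = 0.0243). Its 12-week median was 0.56, with 13 of 16 genes above 0, against 0.36 for the TCA cycle and pyruvate dehydrogenase. At 16 weeks Aldoc fell (-0.96 ± 0.25, limma adjusted p = 0.0314), where 1.71% of all genes were called higher and 1.68% lower. At 20 weeks 2 were lower: Ldhb, a lactate dehydrogenase subunit (-1.18 ± 0.21, adjusted p = 0.00304), and Aldoc (-1.07 ± 0.25, adjusted p = 0.0184).

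Markers of gland cell types moved beside these values. Mean log2 values over the 13 duct genes lay between 9.54 and 9.69 in the 12-week mice, against 8.03 to 9.34 in the 4-week mice. Mouse 3 gave the lowest 20-week mean, 7.46, and the highest of that age was 9.575. Medians of these means for 20 weeks (9.213) and 4 weeks (9.215) were nearly equal. The duct genes had a median difference of 0.795 at 12 weeks, with 10 of 13 above 0. At that age 2 of them rose and 1 fell, where 5.66% of all genes were called higher and 1.36% lower. Cftr, a chloride channel (0.89 ± 0.26, adjusted p = 0.0388), and Scnn1b, a sodium channel subunit (0.94 ± 0.27, adjusted p = 0.037), rose, and Klk1 fell (-0.29 ± 0.06, adjusted p = 0.00463). Of 6 genes of dividing cells, 4 fell at each later age, with a median of -2.72 at 12 weeks. From 8 to 20 weeks, 0.78%, 1.36%, 1.68% and 1.52% of all genes were called lower. The 11 acinar genes had a median of -0.24 and the 7 myoepithelial genes one of 0.94 at 12 weeks, with 0 and 1 called. All 8 granular duct genes were above 0 at 12 weeks (median 0.37), with 2 called higher. All 9 macrophage genes were above 0 as well (median 0.56), with Cd14 called (1.32 ± 0.40, adjusted p = 0.0456), and the list mean was 7.96 to 8.54 at 12 weeks, against 7.04 to 8.06 at 4 weeks. Of 7 endothelial genes 3 fell at 12 weeks (median -0.29): Kdr, and Tie1 and Cdh5, which had no expressed probe set. Over the 4 with an expressed probe set the median was -0.07. Vwf, the brightest and the 1 gene above 0, was at 6.94 to 7.26 in the 12-week mice, against 5.76 to 6.48 at 4 weeks. The 10 T and B cell genes had a median of -0.48 at 12 weeks. At 16 weeks their list mean ranged from 3.15 to 6.13, against 3.16 to 4.37 at 4 weeks, and Cd79a, a B cell receptor component, was at 8.64 and 8.52 in mice 3 and 4 of 16 weeks. The part of cell composition in the respiratory chain values was not tested.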

How the data were processed

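RNA of 25 glands had been hybridised to Affymetrix whole-genome mouse arrays, 1 per mouse. The authors deposited normalized log2 values of 45101 probe sets. The study's methods name GCRMA and the submitters' processing notes RMA, and neither source states a version. The deposited log2 values were used unchanged. Expressed probe sets of a gene were averaged, and where it had none, all its probe sets were. The 10 probe sets that name a member together with another gene were left out.

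One limma 3.58.1 model (R 4.3.3) held all ages as levels of a factor, without covariates. P-values were two-sided and adjusted by Benjamini-Hochberg over 18194 genes in each comparison. Rose, fell, changed and called mean an adjusted p under 0.05. Polynomial terms of age of degree 1 to 4 gave the F-test and the B-statistic (prior share 0.01). Python 3.11.15 (numpy 2.4.6, pandas 2.3.3, matplotlib 3.10.9) served for the exact tests, motifs and plots. The fit was also run on simulated data with independent normal noise and no array-wide shift. That run thus says nothing about arrays that stand apart, as some did here.

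Members and lists were chosen with earlier results of these data known. Named were, in each complex, up to 6 called members by smallest adjusted p (at least 2 in each complex), all of complex II, the isoform pairs, the members of highest and lowest difference at 12 and 20 weeks, and up to 3 genes of each other list, with exceptions marked. Alternatives covered the choice of probe sets, filtering, normalization, a covariate, array weights, the prior, a replicate block and leaving out arrays.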

Additional observations from a re-analysis of the deposited data

Results flagged for a closer look

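In 46 of the 195 sets of 5 mice examined (a gene or a mean over a complex at 1 age), 1 array lay far from the other 4 on the log2 scale. Chance flags about 1 in 20 such groups, and genes on an array are not independent.

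Mouse 4 of 4 weeks accounted for 16. It was lowest for the c-ring genes Atp5g1 (10.066), Atp5g2 (9.747) and Atp5g3 (13.129) and for the complex IV genes Cox4i1 (12.34), Cox5a (12.853), Cox6a1 (12.569) and Cox6b1 (11.351). It was also lowest for Ndufa10 (9.081), Sdhb (10.572) and Uqcrq (9.33). Its mean over members, set against the 4-week mean, was -0.648 over all, -0.662 for complex I, -0.71 for complex II, -0.694 for complex III, -0.639 for complex IV and -0.626 for complex V.

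Mouse 3 of 20 weeks accounted for 14. It was lowest for all genes of complex II, Sdha (8.815), Sdhb (10.07), Sdhc (8.832) and Sdhd (7.654), for Ndufa10 (5.872), Ndufaf3 (3.011) and Ndufaf5 (3.153), for Cox4i1 (11.711), Cox8a (8.233) and Ndufa4 (7.482), and for Atp5g2 (8.699) and Atp5g3 (12.764). Its means over complexes II and III were -1.403 and -1.059.

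The other 16 were spread over more arrays. Mouse 2 of 16 weeks stood apart for Atp5g3 (13.162), Sdhd (9.029), Cox6a2 (2.282) and Ndufa4l2 (1.414). Cox8b stood apart in mouse 3 of 12 weeks (6.761), mouse 3 of 4 weeks (4.557) and mouse 1 of 8 weeks (3.504), and Cox6a2 in mouse 3 of 4 weeks (2.097). Atp5mpl was high in mouse 5 of 20 weeks (11.039) and low in mouse 2 of 8 weeks (7.762). Ndufa4l2 stood apart in mouse 2 of 4 weeks (1.592), Ndufaf5 in mouse 1 of 16 weeks (4.13) and Ndufaf6 in mouse 3 of 8 weeks (2.647). At 12 weeks, where the mice lay close together, mouse 3 was lowest for Ndufab1 (8.107), mouse 1 for Sdha (10.734) and mouse 5 for Uqcrq (10.628).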

How the results depend on the processing

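Against 4 weeks, 0 members were called at 8 weeks, 4 at 12 weeks, 0 at 16 weeks and 3 at 20 weeks. In that order, limma array weights gave 3, 56, 13 and 28, where 6.84%, 20.5%, 8.61% and 13.5% of all genes were called higher and 6.1%, 34.4%, 11.3% and 22.4% lower. They gave 13, 2 and 4 for the neighbouring ages 12 against 8, 16 against 12 and 20 against 16 weeks (4.4%, 0.297% and 2.1% of all genes higher, 1.24%, 1.02% and 1.52% lower), 44 by the F-test (37.7% of all genes) and 7 by the B-statistic (7.8%). After quantile normalization the counts were 3 at 16 weeks (2.74% of all genes higher, 3.4% lower) and 10 at 20 weeks (1.96% and 3.83%), 11 by the F-test (7.55% of all genes) and 4 by the B-statistic (2.95%), and 7 isoform comparisons passed, 4 of them with an isoform at background. The 12-week medians were then 0.061, 0.089, 0.111 and 0.006 for complexes I, II, III and V. Quantile normalization without mouse 3 of 20 weeks, chosen after seeing the data, gave 2, 13, 10 and 13 (3.37%, 7.14%, 5.21% and 4.83% of all genes higher, 3.4%, 5.23%, 5.93% and 6.01% lower), with 18 by the F-test (13.9%), 3 by the B-statistic (4.01%) and 12-week medians of 0.06, 0.088, 0.11 and 0.006. Array upper quartiles as a covariate gave 3 at 16 weeks (4.69% of all genes higher, 4.91% lower), 13 at 20 weeks (4.99% and 5.25%) and 7 by the F-test (11%). The median of complex II at 8 weeks was then -0.137, and those at 12 weeks were 0.006 for the assembly factors and 0.046, 0.129 and -0.009 for complexes II, III and V. Without the 3 arrays of lowest upper quartile, also chosen after seeing the data, 19, 8 and 15 were called at 12, 16 and 20 weeks (10.9%, 5.79% and 5.27% of all genes higher, 5.31%, 5.34% and 3.94% lower), 21 by the F-test (13.9%) and 3 by the B-statistic (3.68%). Fitting only the 2 ages compared gave 11 at 12 weeks (10.7% of all genes higher, 2.86% lower) and 0 at 20 weeks (0.0495% and 0.209%). The mean of all probe sets gave 1 at 16 weeks, and testing only genes with an expressed probe set gave 2 at 8 and 1 at 16 weeks and 2 by the F-test. The brightest probe set gave 0 by the F-test and 0 by the B-statistic, and a prior share of 0.05 gave 3 by the B-statistic. For these choices of probe sets, filtering and prior the share of all genes called was not computed. Their counts thus cannot be read as results about the members. The cause of the shifts between settings was not tested.

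Replicate numbers did not pair the mice: the deviations of 50 same-numbered pairs correlated at a median of -0.043, and 5 of 25 arrays correlated best with their own number. The replicate block gave 0, 4, 1 and 3 calls in the same order, and the share of all genes called under it was not computed.

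Leaving out 1 mouse at a time gave 0 to 3, 1 to 26, 0 to 5 and 0 to 21 calls in the same order, 1 to 12 by the F-test and 1 to 4 by the B-statistic, and 0 between neighbouring ages. The share of all genes called moved as well. At 12 weeks 13.3% were higher without mouse 3 of 20 weeks and 2.44% without mouse 4 of 4 weeks. With fewer mice the exact test of the isoforms has fewer divisions and a higher smallest p, so its count of 0 here says nothing about stability.

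Over all 81 expressed members, 53 were above 0 at 12 weeks after quantile normalization, against 77 as deposited. Of the genes named by rule, some changed direction at 12 weeks. Atp5g1 was at -0.24 after quantile normalization with and without mouse 3 of 20 weeks, -0.218 with the covariate, -0.05 with array weights, and -0.091 without the 3 arrays. Leaving out 1 mouse at a time it ranged from -0.091 (mouse 4 of 4 weeks) to 0.195 (mouse 2 of 4 weeks). With the covariate Cox4i1 was at -0.07, Ndufaf3 at -0.108, Sdha at -0.046, Cox6b2 at 0.013 and Cox4i2 at 0.006. Cox4i2 was at 0.009 after quantile normalization and 0.008 when mouse 3 of 20 weeks was also left out. Leaving out 1 mouse, Cox8b ranged from -0.287 (mouse 3 of 12 weeks) to 0.67 (mouse 3 of 4 weeks).

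Precision was limited by 5 arrays per age, and 9 members lay at background. Array intensities give no read depth.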
